A study of Xenopus laevis with 3 samples.

Results

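Genes that carry the thyroid hormone signal were measured in the inner ear of Xenopus laevis larvae at stages 56 to 58. The genes were thra, thrb, rxra, ncor1, dio3, klf9 and thibz, chosen by name, and every frog probe set whose gene symbols reduce to 1 of these names after the suffixes of the gene copies are removed was used. This rule gave 12 of 32475 frog probe sets and 7 of 9255 annotated genes. X. laevis is allotetraploid, so a gene can have an L and an S copy, and a probe set can be annotated with either or both. Inner ears of larvae at stages 56 to 58, aged 38 to 44 days after fertilization, were pooled into 3 RNA samples and each was hybridized to its own Affymetrix array of the X. laevis genome. The pools are labelled with 10, 7 and 8 animals for replicates 1, 2 and 3, and no genotype or treatment is given for any of them. The methods of the study give 8 to 10 animals for each RNA sample, so the label of replicate 2 differs from them. The mean body weight was 0.55 ± 0.11, 0.59 ± 0.10 and 0.48 ± 0.05 g (SD over animals), and the mean length was 5.03 ± 0.30, 5.07 ± 0.29 and 4.93 ± 0.29 cm. The stage range is labelled for every pool, while the sample titles name stage 56 only, and the share of each stage in a pool is not given. All samples belong to 1 condition, so the data give levels at this age and hold no measured response to hormone.

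Thyroid hormone drives amphibian metamorphosis through nuclear receptors that sit on response elements of target genes as heterodimers with retinoid X receptors. Without hormone the receptor holds a corepressor complex on the gene, and with hormone it exchanges this complex for coactivators. In Xenopus tadpoles the genes thrb, klf9 and thibz are themselves induced by the hormone, and the deiodinase encoded by dio3 destroys it. In the mouse, thrb and the deiodinase genes Dio2 and Dio3 are required for the normal development of hearing.

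The deposited values are GCRMA values, log2 intensities per probe set, and the expression threshold criterion was a GCRMA value of 4 or higher. Pearson's r between the arrays was 0.994 to 0.996 over the frog probe sets, and the array medians were 7.51, 7.52 and 7.55. The lowest 25% of frog probe sets had means below 2.17, which is called the floor here. Of the otic marker genes, 7 of 9 had a probe set and all 7 were called above 4, beside 78.7% of annotated genes, among them otos, hmx3, pax2 and gata3. Of the 6 thyroid gland markers, foxe1, nkx2-1 and slc5a5 had a probe set and lay at the floor, at 1.90 to 1.92. The other 3, tg, tpo and tshr, had no probe set and were not measured. Of the 6 pituitary markers, tshb and prl had no probe set either. Of the 4 measured, cga, gh1 and gh2 lay at 1.84 to 1.94 and pomc at 3.44 and 2.72 in its probe sets, and none was called. The higher of these, pomc.L, had 2.93, 4.16 and 3.22 in replicates 1, 2 and 3, so replicate 2 was above 4.

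The receptors and the corepressor were detected in every pool, the hormone-degrading enzyme lay at the threshold, and the response factors klf9 and thibz did not meet the criterion. By the mean of 3 arrays, 5 of the 12 probe sets had a GCRMA value of 4 or higher, beside 64.8% of all frog probe sets and 73.4% of those annotated with 1 gene. The mean was tested against 4 by limma's moderated test, one-sided, with p adjusted over all 32475 frog probe sets. This called 4 of the 12, beside 63.1% of all and 71.9% of those annotated with 1 gene. Counted by gene, 5 of 7 genes had a probe set at 4 or higher, beside 79.9% of annotated genes, and 4 of 7 had a called probe set, beside 78.7%. Of the 8 probe sets that were not called, 7 were below the threshold by their mean, and 6 of these lay at the floor on every array.

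**Figure D1:**
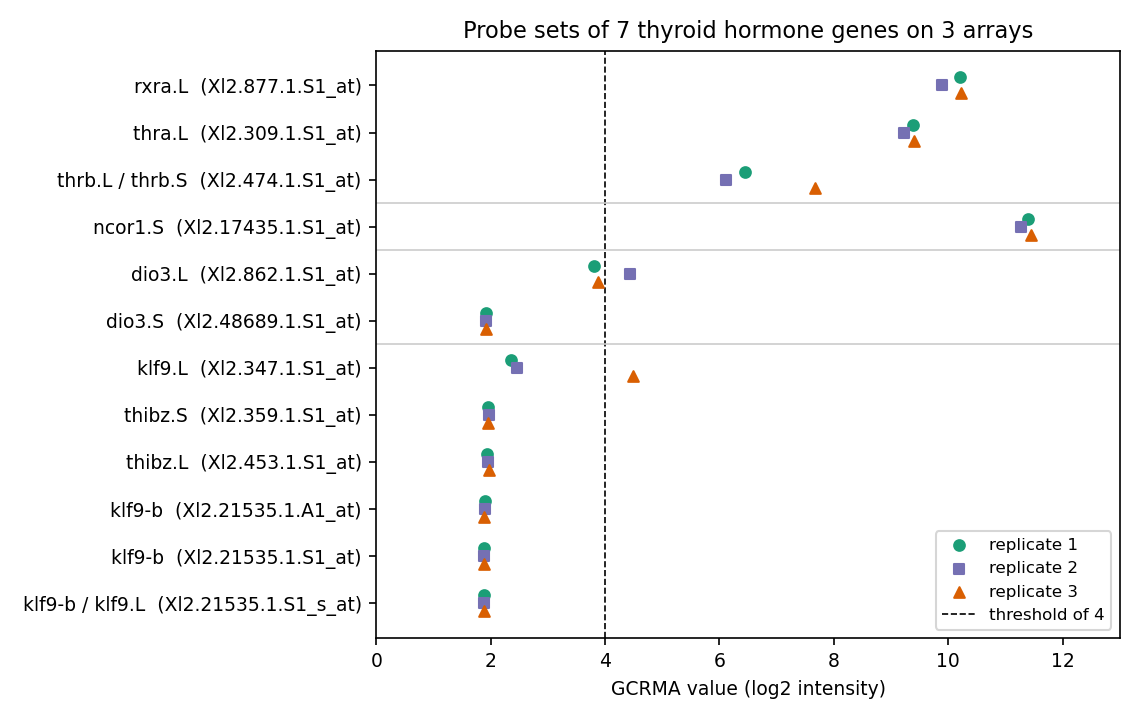
GCRMA value (log2 intensity, x axis) of each of the 12 probe sets (y axis) on the 3 arrays, grouped from top to bottom as receptors, corepressor, deiodinase and response factors, with the threshold of 4 as a dashed line. The probe sets of rxra, thra, thrb and ncor1 lie above 4 on every array, while dio3.L and klf9.L have 1 array above it, replicate 2 and replicate 3 respectively.

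The thyroid hormone receptor alpha gene was represented by 1 probe set, annotated as thra.L. This receptor is present in Xenopus tadpole tissues before the gland is active and makes them competent to respond. Replicates 1, 2 and 3 had GCRMA values of 9.39, 9.22 and 9.40, with a mean of 9.34 ± 0.10 (SD, n = 3 arrays). The values of the 3 pools lay close together, and the mean was above 4 in limma's test (adjusted p = 8.00e-07). The SD was below the median SD of 0.17 over the 3116 frog probe sets whose mean lay within 0.5 of it.

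The thyroid hormone receptor beta gene, the hormone-induced receptor, was represented by a probe set annotated with both copies, thrb.L and thrb.S, so the copies cannot be told apart. In replicates 1, 2 and 3 its GCRMA value was 6.44, 6.12 and 7.67, which gives a mean of 6.74 ± 0.81 (SD, n = 3). All 3 pools were above 4, and replicate 3 stood above the other two. The mean was above 4 in limma's test (adjusted p = 0.00186), and with any 1 array left out the adjusted p was 0.00177 to 0.00550. The SD of 0.81 compares with a median of 0.25 over the 1683 frog probe sets of like mean, of which 4.40% had an SD as large.

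The retinoid X receptor alpha, a heterodimer partner of both thyroid hormone receptors, was measured by a probe set annotated as rxra.L. It had GCRMA values of 10.20, 9.89 and 10.22 in the order of the replicates, a mean of 10.11 ± 0.18 (SD, n = 3; limma adjusted p = 1.07e-06). The corepressor NCoR1, which binds the receptor in the absence of hormone, was measured by a probe set annotated as ncor1.S. Its GCRMA value was 11.40, 11.27 and 11.45, a mean of 11.37 ± 0.09 (SD, n = 3; limma adjusted p = 1.85e-07). Both were well above the threshold in every pool, and replicate 2 was the lowest for each. Replicate 2 was also the lowest for thra and thrb, while among all called frog probe sets it was the lowest in 32.5%. Replicate 3 was the highest for these 4 probe sets, as it was in 31.9% of all called ones. Replicates 2 and 3 were singled out here after the values had been seen. The 4 probe sets were read on the same 3 arrays. The other copies thra.S, rxra.S and ncor1.L are listed in the RefSeq gene table, but no probe set is annotated with them here.

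The type 3 deiodinase, which inactivates thyroid hormone by removing an iodine from its inner ring, had a probe set for each copy. That of dio3.L had GCRMA values of 3.81, 4.44 and 3.88 in the order of the replicates, a mean of 4.04 ± 0.35 (SD, n = 3). Only replicate 2 reached the threshold, and the mean was not above 4 in limma's test (adjusted p = 0.623). Without replicate 2 the mean lay 0.16 below the threshold, so the criterion was met through that pool alone. The probe set of dio3.S was at the floor, with 1.91 on each array. Of all frog probe sets, 2.24% had arrays on both sides of 4, and dio3.L and klf9.L were the 2 probe sets of the 12 that did.

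Klf9, a zinc finger transcription factor that is among the earliest genes induced by thyroid hormone in tadpoles, had 4 probe sets. The probe set annotated as klf9.L alone gave GCRMA values of 2.36, 2.46 and 4.49 for replicates 1, 2 and 3, with a mean of 3.10 ± 1.20 (SD, n = 3). Replicates 1 and 2 were near the floor and only replicate 3 was above 4, and the mean was not called (limma adjusted p = 1). The SD was among the largest of its level, as 2.60% of the 1386 frog probe sets of like mean had an SD as large. The other 3 probe sets of klf9, annotated as klf9-b alone or as klf9-b and klf9.L together, had 1.88 to 1.90 on every array. These 3 are annotated with 1 shared source sequence, another than that of klf9.L, so they are not separate measurements of the gene. The probe sets of this gene thus disagreed in replicate 3, including the one whose annotation names klf9.L beside klf9-b. The gene ID of klf9-b is not in the RefSeq table used, which gives klf9-b as a synonym of klf9.L, so which copy these probe sets measure was not settled.

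Thibz, a basic leucine zipper factor named for its induction by thyroid hormone, was at the floor in both probe sets. That of thibz.L had a GCRMA value of 1.94, 1.95 and 1.98 in replicates 1, 2 and 3, and that of thibz.S had 1.96 on each array. No pool differed from another by more than 0.04 in either, and neither was called (limma adjusted p = 1 for both). A value at the floor gives no level below it, so a transcript below the sensitivity of the probe set was not detectable.

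Across the pools, the probe sets of thrb and klf9.L varied most of the 12, and both were highest in replicate 3, while the other 3 probe sets of klf9 stayed at the floor on every array. The difference of replicate 3 from the mean of replicates 1 and 2 was 1.38 on the log2 scale for thrb, a 2.61-fold higher intensity. For klf9.L no size of the difference is given, since replicates 1 and 2 were near the floor. A difference of 1 or more in this direction was found in 2 of the 12 probe sets, thrb and klf9.L, beside 1.39% of all frog probe sets. The share was 0.758% and 0.73% for the same comparison of replicates 1 and 2, in which none of the 12 probe sets was higher by 1 or more. These shares include probe sets at the floor, where the spread between arrays is small. Of the frog probe sets of like mean, 4.40% had an SD at least as large as that of thrb, and 2.60% as that of klf9.L. Among all frog probe sets 220 had a difference of replicate 3 at least as high as that of thrb. Replicate 3 was set against the others after the values had been seen, and with 1 array per pool the difference has no replicate check and no p. The remaining 10 probe sets differed by -0.24 to 0.18, and among these thra, rxra and ncor1 by 0.10, 0.18 and 0.12. Replicate 3 was the pool of the lightest animals, at a mean of 0.48 g, and the part of body size in these values was not tested.

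**Figure D2:**
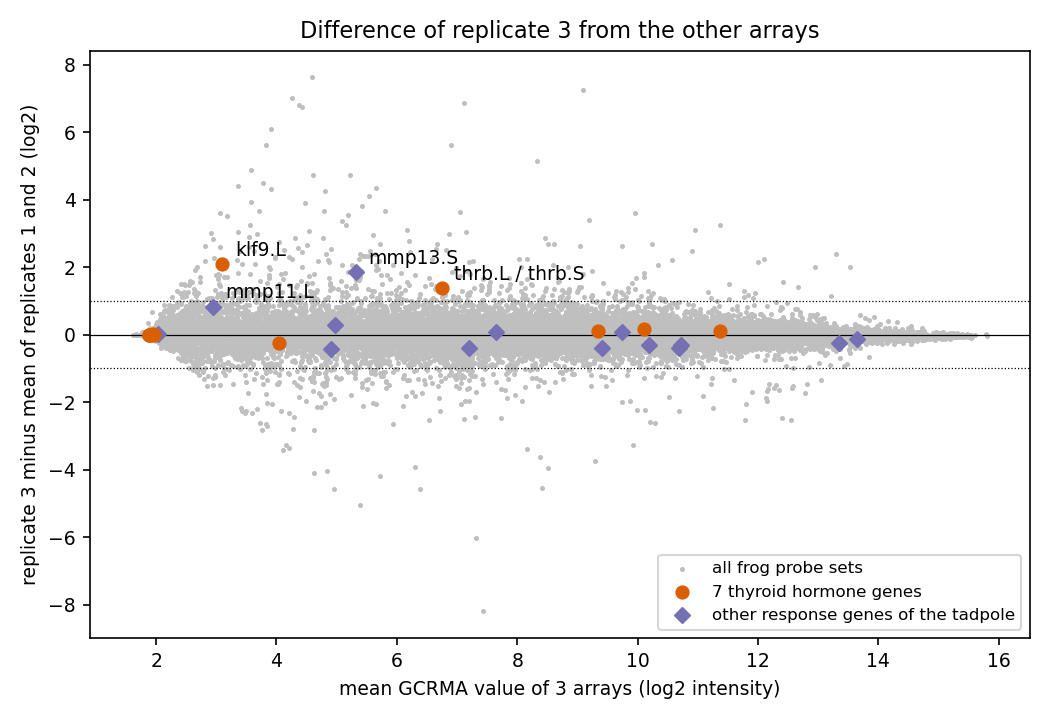
Difference of replicate 3 from the mean of replicates 1 and 2 (log2, y axis) against the mean GCRMA value (log2 intensity, x axis) for all 32475 frog probe sets in grey, the 12 probe sets of the 7 genes as circles and other tadpole response genes as diamonds. Dotted lines mark a difference of 1 in either direction, and mmp13.S and thrb lie above the upper one at 1.86 and 1.38, as does klf9.L, whose other arrays were near the floor.

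Matrix proteases that thyroid hormone induces in tadpole tissues were among the other response genes. The collagenase gene mmp13.S gave GCRMA values of 4.21, 5.18 and 6.55 for replicates 1, 2 and 3, with a mean of 5.31 ± 1.18 (SD, n = 3). It was above 4 in every pool and highest in replicate 3, but the mean narrowly missed limma's threshold (adjusted p = 0.0526). Over 10 alternatives limma's adjusted p was 0.00943 to 0.471, and 4 called it. The lowest came from a test against 3 and the highest from a test against 5, not against 4. The stromelysin gene mmp11.L had 2.60, 2.72 and 3.49, below 4 in every pool and also highest in replicate 3. By contrast fap.L, which encodes a membrane protease, had 11.08, 10.57 and 10.52, and the matrix metalloproteinase genes mmp2.S and mmp14.L had means of 13.64 ± 0.08 and 13.35 ± 0.14 (SD, n = 3), the last in the higher of its 2 probe sets. These were lowest in replicate 3. Over the list, replicate 3 was lowest in 8 of the 14 probe sets and highest in 5. Of 11 genes of this list 9 had a probe set and 6 of them were called, beside 78.7% of annotated genes, while shh.L lay at the floor with 2.04 ± 0.01 (SD, n = 3). Replicate 3 was higher by 1 or more in 1 of the 14 probe sets, that of mmp13.S, beside 1.39% of all frog probe sets. The median difference over the list was -0.19, beside -0.01 over all frog probe sets.

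Other measured genes of hormone entry, activation and receptor action were mostly detected. Dio2, the deiodinase that forms the active hormone, had 2 probe sets annotated as dio2.L that differed widely. The one had a mean of 10.30 ± 0.25 and the other 4.78 ± 0.52 (SD, n = 3 each), and both were called (limma adjusted p = 1.97e-06 and 0.0290). The deiodinase gene dio1.L had 5.78 ± 0.42, and the cytosolic hormone-binding protein gene crym.S had 12.20 ± 0.11 (SD, n = 3 each). Slc3a2 and its partners slc7a5 and slc7a8, subunits of amino acid transporters that can also carry thyroid hormone, were called in all 8 of their probe sets, at means of 4.97 to 13.85. The gene of the plasma carrier transthyretin, ttr.L, lay at the floor at 1.97 ± 0.02 (SD, n = 3). In this list 7 of 12 genes had a probe set and 6 were called, beside 78.7% of annotated genes.

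Among the receptor partners, rxrb.S and rxrb.L had GCRMA values of 13.15 ± 0.12 and 11.61 ± 0.10, and rxrg.L had 8.19 ± 0.46 (SD, n = 3 each). All 3 probe sets were called. Of the corepressor complex, 5 of 7 genes had a probe set and all 5 were called, with hdac1.L at 11.82 ± 0.03 and gps2.L at 10.35 ± 0.12 (SD, n = 3 each). The histone deacetylase of the NCoR complex, hdac3.S, had a called probe set at 7.05 ± 0.12 and another at the floor, 2.11 ± 0.03 (SD, n = 3 each). Of the coactivators, 6 of 10 genes had a probe set and 5 were called. The gene ncoa2 was called through a probe set of ncoa2.S at 5.47 ± 0.12 (SD, n = 3). Another of ncoa2.S and that of ncoa2.L lay at the floor, at 2.01 and 1.91. The arginine methyltransferase genes prmt1.L and carm1.S had 13.22 ± 0.16 and 10.52 ± 0.10, and the mediator subunit gene med1 lay at the floor with 1.89 ± 0.01 (SD, n = 3 each). The receptor coactivator ncoa3.S had 8.22, 8.39 and 9.15 in replicates 1, 2 and 3. Across the 5 lists of response and pathway genes, replicate 3 was highest in 20 and lowest in 19 of the 50 probe sets. Over these 5 lists, 42 of 50 probe sets and 24 of 29 measured genes were called, beside 71.9% of the probe sets annotated with 1 gene and 78.7% of annotated genes. In bulk tissue, fewer expressing cells and less RNA per cell cannot be told apart in any of these values.

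**Figure D3:**
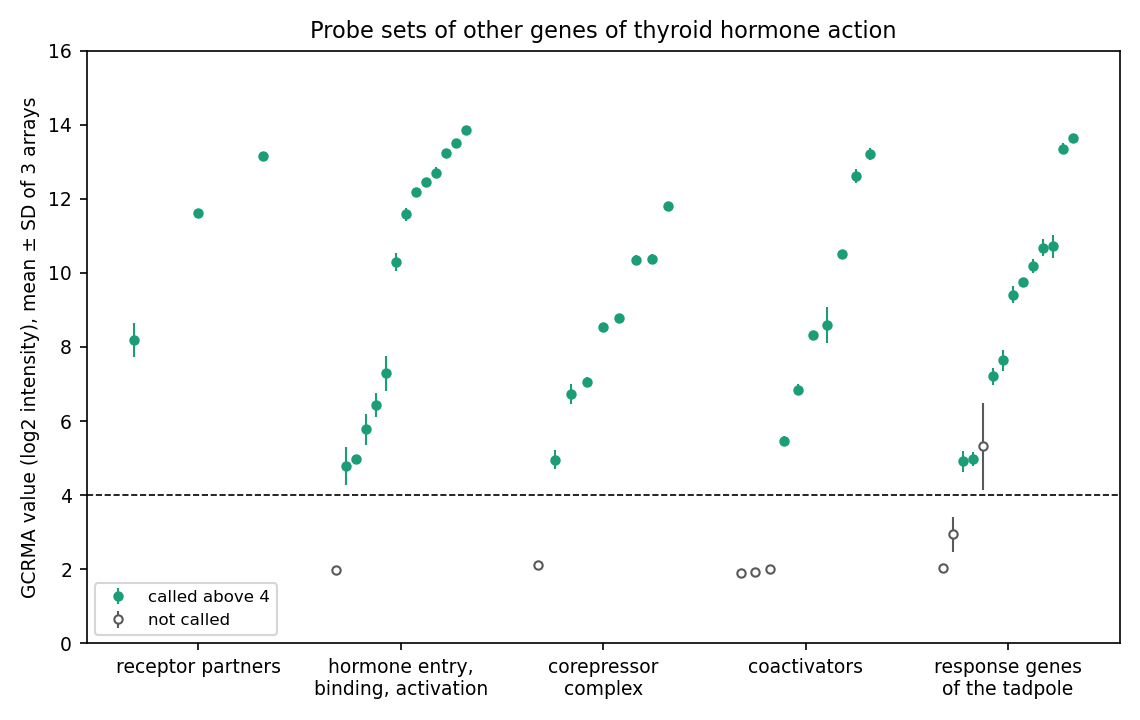
Mean GCRMA value (log2 intensity, y axis) with the SD of 3 arrays as bars for the 50 probe sets of the 5 pathway lists (x axis), ordered by level within each list. Filled points (42) were called above the dashed threshold of 4 by limma, and open points (8) were not, among them mmp13.S at 5.31 with the longest bar.

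Marker genes of other cell types also differed between the pools, those of muscle mainly in replicate 3 and those of neurons in replicates 2 and 3. Those of red cells did not share 1 order of the pools. Of 15 probe sets of 6 skeletal muscle genes, 12 were lower by 1 or more in replicate 3, beside 0.911% of all frog probe sets. They were of ckm, mylpf, tnni2, tnnt3 and actn3. Several are probe sets of the same gene ckm.L, so the 12 are not separate genes. Among them 1 of ckm.L and 1 of actn3.L, with means of 3.14 and 3.92, were not called. The probe set of acta1.S differed by -0.38. The summed linear signal of the muscle genes, taking the highest probe set of each gene, was 18490, 19438 and 5945 in replicates 1, 2 and 3. Of 6 probe sets of red cell genes, 3 were higher by 1 or more in replicate 3, beside 1.39% of all frog probe sets. They were those of rhag, slc4a1 and gata1.L, of which rhag and gata1.L were below 4 in replicates 1 and 2 and not called. The red cell probe set with the highest mean, alas2.S, had 10.51, 10.08 and 10.34 in replicates 1, 2 and 3. That of alas2.L had 8.64, 7.79 and 8.91, and that of slc4a1.L had 9.64, 10.05 and 10.93. The summed red cell signal was 2287, 2177 and 3305. It came mainly from alas2.S and slc4a1.L, and neither of these was both lowest in replicate 2 and highest in replicate 3. Of 10 probe sets of neuronal genes, 2 were higher by 1 or more in replicate 3, beside the same 1.39%, those of nefm.S and snap25.S. In replicate 2, 4 of the 10 were lower by 1 or more than the mean of the other arrays, beside 1.31% of all frog probe sets, those of nefm.L, nefm.S, snap25.S and tubb3.L. The summed neuronal signal was 17368, 12662 and 22359. The neuronal and the red cell sums were lowest in replicate 2 and highest in replicate 3, as were thrb, thra, rxra and ncor1. By contrast klf9.L, mmp13.S and dio3.L were lowest in replicate 1, and dio3.L was highest in replicate 2. Replicate 3 exceeded replicate 1 by only 0.01, 0.02 and 0.05 for thra, rxra and ncor1. In the red cell list slc4a1.L, gata1.L and gata1.S were lowest in replicate 1, and rhag and the alas2 probe sets in replicate 2. By their means, elavl3 and 1 probe set of stmn2.L in the neuronal list lay at the floor, at 2.09 and 1.99. So did gata1.S of the red cell list, at 2.168. The otic, cartilage and Schwann cell sums of replicate 3 were 0.975, 0.953 and 0.993 times the mean of the other arrays. Single probe sets of these lists differed in replicate 3 by -0.18 to 0.58, -0.15 to 0.17 and -0.01 to 0.60 on the log2 scale. The part of muscle, blood or nerve tissue in the values of thrb, klf9.L and mmp13.S was not tested.

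**Figure D4:**
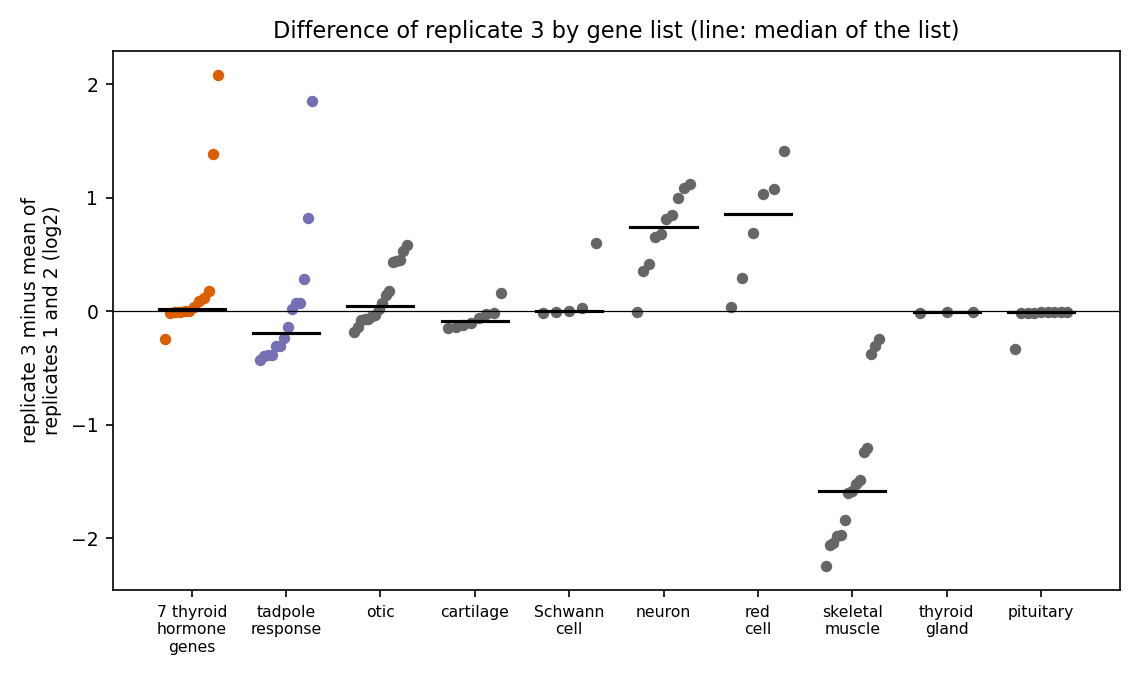
Difference of replicate 3 from the mean of replicates 1 and 2 (log2, y axis) for each probe set of the 7 thyroid hormone genes, the other tadpole response genes and the marker lists (x axis), with the median of each list as a line. The medians are 0.02 for the 7 genes, -0.19 for the response genes, 0.75 for neuronal, 0.86 for red cell and -1.58 for skeletal muscle markers.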

How the data were processed

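The authors prepared GCRMA values, log2 intensities per probe set, from 3 arrays of pooled larval inner ear RNA, and deposited these log2 values. GCRMA corrects the background, normalizes between arrays and summarizes the probes, and values of weakly hybridized probe sets gather at a floor. Its software is not given in the sources used here. Of 32635 probe sets, 160 controls and reporters were left out. Genes were named from the platform annotation, and RefSeq's gene table (assembly v10.1) held 10 of the 11 gene IDs of the 7 genes. A one-sided test of each mean against 4 used limma 3.58.1 under R 4.3.3 (lmFit, eBayes with a mean-variance trend, Benjamini-Hochberg adjustment across the frog probe sets). It was tested on simulated data of 32475 probe sets, of which only a small part was given each true mean named here. It called 5% of those given a true mean of 4, 68% of those given 4.5 and 89% of those given 5. Counts were made in Python 3.11.15 with pandas 2.3.3. The arrays are biological replicates of 1 condition, and their number limits the precision. Alternatives changed the threshold, normalization, arrays, annotation and limma settings. All probe sets of the 7 genes are named, and other genes come from fixed lists. Members and lists were chosen with earlier results of these data known. Promoter and protein sequences were not used here.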

Additional observations from a re-analysis of the deposited data

How the results depend on the processing

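The counts of called probe sets and of those with a mean of 4 or higher stayed within 1.5 times their value under every alternative run, for the 7 genes, the pathway lists and all frog probe sets. For the 7 genes, 4 to 6 probe sets had a mean at the threshold or higher and 3 to 5 were called. The smaller count of 3 came from single gene symbols only, which drops thrb, and the larger of 5 from a threshold of 3, which adds dio3.L (adjusted p = 0.00286). The mean of dio3.L minus the threshold, 0.04 as reported, was -0.13 with array weights and -0.96 with a threshold of 5, and -0.16 to 0.16 with 1 replicate left out, the lowest without replicate 2. That of klf9.L, -0.90 as reported, was 0.10 with a threshold of 3. Chosen after seeing the data, replicate 3 was also set against replicate 1 or 2 alone, which gave 1.22 to 1.54 for thrb and 1.37 to 2.34 for mmp13.S. Median centring and quantile normalization gave 1.35 and 1.35 for thrb. Signals at or near the floor limit dio3.S, klf9 and thibz. No paired analysis was possible because there is 1 group.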
